A study of Mus musculus with 4 samples.

Results

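Long strongly enriched blocks are stretches of the mouse autosomes where methylated DNA was recovered at a high ratio from fetal liver at every probe in a row. A block was 6 or more consecutive probes, with starts at most 500 bp apart, each with a mean M above 2 on the control arrays. M is log2 of the immunoprecipitated over the reference signal, less the array's median, so an M of 2 stands for a ratio 4-fold above that of the median probe. By this rule 3325 blocks were found, which held 26612 of the 398426 autosomal probes, or 6.68%. The control values chose the blocks, so the control levels below are a description. The values of the food restricted pool were not used for the choice.

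Litters of food restricted and control C57BL/6J dams were compared, and liver was the tissue in both. The food restricted dams received 50% of the chow that control dams ate, from gestation day 10 to 17, and the control dams ate freely. Fetal livers were taken on gestation day 18, and each group was 1 pool of liver DNA described as N = 6. Each pool was hybridised against its own total genomic DNA on 2 arrays with the dyes exchanged, 1 array of each pool per slide, so a pool's arrays repeat the measurement and not the pool, and no p-value was computed. The food restricted array lay at the same position of both slides, so position and pool cannot be told apart. Whether N = 6 means fetuses or litters is not stated, nor is their sex.

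Methylation of cytosine in CpG pairs is the main DNA mark of mammalian cells, and most CpG pairs outside CpG islands carry it. Islands at the starts of active genes are usually free of it, whereas control regions of imprinted genes, germline genes that are silent in the body, gene bodies and repeats can carry dense methylation. Immunoprecipitation of methylated DNA recovers fragments better the more methylated CpG pairs they hold, so a high M needs both dense CpG pairs and methylation, and M is no percentage. Fetal liver is also the site of blood formation, so the pools held liver and blood cells, and a difference in their shares cannot be told apart from a difference within a cell type.

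On the arrays used here, 93.5% to 97.6% of probes were well above background in the reference channel, and in the immunoprecipitated channel 79.9% and 80.6% were on the food restricted arrays, against 72.2% and 72.0% on the control arrays. In the deposited value table, the columns labelled as the food restricted array of slide 1 and the control array of slide 2 hold the ratios of each other's scanner file. The scanner files were used, because the direction of their ratios fits the titles' dyes. With each value table column given to the file it equals, the call defined below was made for 636 blocks in place of 639. Within the blocks the immunoprecipitated signal was bright: 99.8% and 99.9% of block probes were well above background on the food restricted arrays and 99.7% on both control arrays. A single block held a probe with an outlier flag, and at most 1 block probe per array was saturated.

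The blocks were short in absolute terms. Their median length was 1218 bp, the middle 50% lay between 1026 and 1554 bp, and the range was 622 to 4877 bp. The smallest allowed size was also the most frequent one, with 1130 blocks of 6 probes, 753 of 7 and 491 of 8, while 620 had 10 or more and 25 had 20 or more. A length above 2000 bp was reached by 344 blocks (10.3%) and a length above 4000 bp by 13. In all, the blocks covered 4.55 Mb.

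The layout of the array limited these lengths. Probes lie in stretches that are separated by gaps, and 24301 autosomal stretches had at least 6 probes within the 500 bp spacing, with a median of 12 probes. Of these stretches 3142 (12.9%) held a block, and 176 held more than 1. A block filled its whole stretch in 328 cases (9.86%), so its length is a lower bound on both sides. In 1846 further blocks (55.5%) 1 end was the end of the stretch. Only 1151 blocks (34.6%) were bounded on both sides by a measured probe with a control M of 2 or less.

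**Figure D1:**
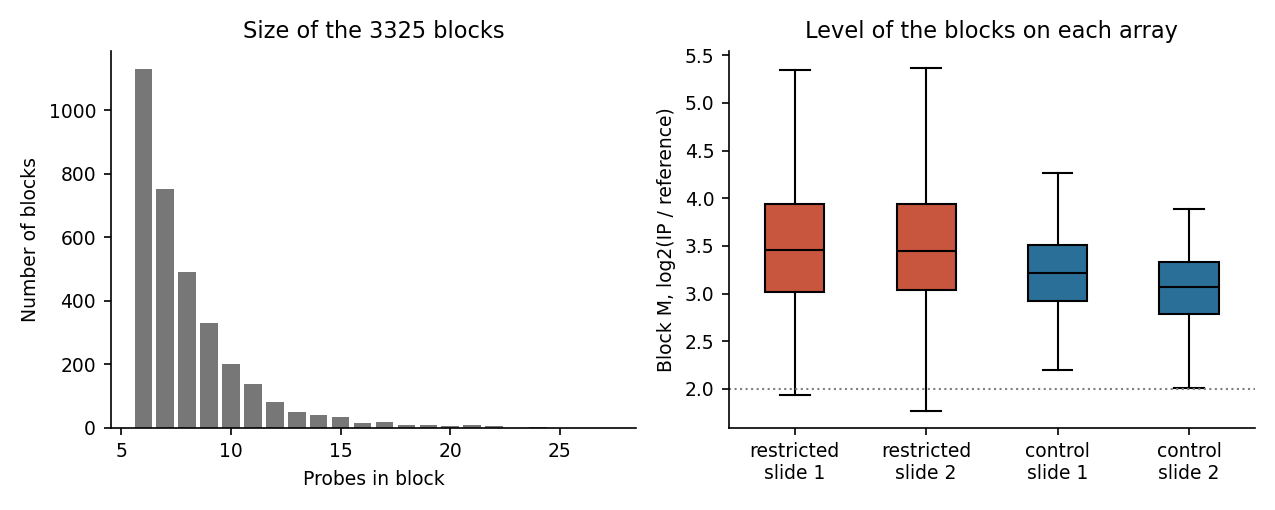
Left, number of blocks by the number of probes they hold. Right, block M (median over probes, log2 of immunoprecipitated over reference signal) on the 2 food restricted and the 2 control arrays; boxes give the middle 50%, lines the median, whiskers the lowest and highest block, and the dotted line the threshold of 2. Blocks of 6 probes are the most frequent (1130), and the food restricted boxes reach higher, with medians of 3.46 and 3.45 against 3.22 and 3.07.

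Blocks were spread over all 19 autosomes but not evenly. Chromosome 15 had the highest density, 117 blocks per 10000 probes, with 9.58% of its probes in blocks, followed by chromosome 17 with 112 and chromosome 19 with 103. Chromosome 2 had the lowest, 60.5 per 10000 probes, followed by chromosome 1 with 64.4. Probes with a control M above 2 made up 18.6% of all autosomal probes, and 35.8% of these lay in blocks. The share of such probes was 23.2% on chromosome 15 and 15.7% on chromosome 2.

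Within chromosomes the blocks were unevenly spaced. The spacing of the stretches that could hold a block was not measured, so the part of the probe layout was not tested. Neighbouring blocks were a median of 157502.5 bp apart, and 449 of 3306 neighbour pairs (13.6%) lay within 10 kb of each other. Of 2098 autosomal megabases with probes, 1151 held at least 1 block and 45 held 10 or more. The megabase of chromosome 7 that starts at 52 Mb held the most, 25 blocks, with a median M of 3.52 in the food restricted pool and 3.19 in the control pool. Next came chromosome 15 at 76 Mb with 23 blocks, chromosome 17 at 25 Mb with 22 and chromosome 10 at 80 Mb with 21. These megabases are also rich in probes, with between 1014 and 1328 each. Distance to the end of a chromosome was counted from its last probe. In the last 1 Mb by this count 2.65% of probes lay in blocks, against 6.74% elsewhere, whereas in the last 5 Mb the share was 7.80%, against 6.61% elsewhere. Positions are on the mm9 build, for which no annotation was used, so no block is assigned to a gene.

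Probes in blocks were shorter than other autosomal probes, a property of the design that the rule did not use. Their median length was 53 bases, against 59 for the other autosomal probes, and 41.0% were 50 bases or shorter, against 25.3%. Probes outside blocks that also had a control M above 2 were intermediate, with a median of 57 bases and 27.3% at 50 or shorter. Oligonucleotides of matched melting temperature are shorter where G and C are frequent Whether these probes were matched in this way was not tested.

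The question for the food restricted pool was whether the same stretches were enriched and to what level. In that pool every probe was above 2 in 2656 of the 3325 blocks (79.9%), while 4.36% of all autosomal tiles of 6 probes met this condition. Of single block probes, 97.1% were above 2, against 91.8% of the other autosomal probes with a control M above 2. No block lost all of its enriched probes, and the lowest share of probes above 2 in a block was 33.3%. The same rule applied to the food restricted arrays gave 3161 blocks with a median length of 1223 bp, and the longest was the same length as in the control pool, 4877 bp and 27 probes. Overlap by at least 1 probe was found for 90.9% of the control blocks and for 95.7% of the food restricted blocks.

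Where a block failed in the food restricted pool, it did so by little. In 579 of the 669 blocks concerned a single probe was at or below 2, and in 90 blocks 2 or more were. The 773 probes concerned had a median M of 1.89 in the food restricted pool, against 2.1 in the control pool, and 30 of them were at 1.5 or less. Of these probes 65.1% were the first or last of their block, while such end probes make up 25% of all block probes. By the rule, a measured neighbour outside an end has a control M of 2 or less. At such ends control M was already low, 2.56 and 2.44 at the last probe inside, against 3.38 and 3.22 at the third. The blocks that failed were weaker ones, with a median M of 3.04 in the food restricted pool and 2.88 in the control pool, while those that stayed whole had 3.54 and 3.20. The control values were required to exceed 2 and the food restricted values were not, and the part of this choice in the loss was not tested. Among the blocks that stayed whole, 233 (8.77%) reached further in the food restricted pool, by a median of 1 probe.

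The levels of the blocks were higher in the food restricted pool at the upper end. The value of a block is the median M of its probes. On the food restricted arrays it had a median of 3.46 on slide 1, with a range from 1.94 to 5.34, and 3.45 on slide 2, with a range from 1.77 to 5.37. On the control arrays the medians were 3.22 and 3.07 and the ranges 2.20 to 4.26 and 2.00 to 3.89. The ranges overlap widely, but the upper ends do not match: 591 blocks (17.8%) had a value above 4 on both food restricted arrays and none did on both control arrays. On the control arrays taken singly, 54 blocks were above 4 on slide 1 and 0 on slide 2. The gap was not particular to blocks. Autosomal tiles of 6 probes with a mean M of the 4 arrays above 4, which include tiles inside blocks, had medians of 4.65 and 4.60, against 3.88 and 3.62. Of single block probes 8082 (30.4%) had a mean M above 4 in the food restricted pool and 557 (2.09%) in the control pool. Above 4.5 there were 3975 and 1, and the highest probe had 6.03 in the food restricted pool and 4.58 in the control pool.

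The difference between the pools is given as D, the food restricted block value minus the control block value within a slide, in log2 units. The median D over the blocks was 0.25 on slide 1 and 0.41 on slide 2, or 1.19-fold and 1.32-fold. Both slides had a D above 0 in 2753 blocks (82.8%), and both had a D below 0 in 68 (2.05%). Over all 49070 autosomal tiles of 6 probes these shares were 41.1% and 23.2%, and the median D was 0.04 and 0.10. With a call set at a D of 0.5 or more in size on each slide, or 1.41-fold, 639 blocks (19.2%) were higher, against 4.7% of all tiles. No block was lower, against 0.33% of all tiles, and none was past this size with opposite signs. The lower tiles were mostly of low level. By the mean M of the 4 arrays, 1 of 2153 tiles between 2.5 and 3 was lower. Between 2 and 2.5 and above 3 the count of lower tiles was 0, as for the blocks. The 2305 higher tiles lay mostly at the 2 ends of the range. At a mean M of at most -1 there were 1165 (9.30% of the tiles there), with a median D of 0.26 and 0.28 in that class. Between 1 and 2 there was 1 among 7095 tiles, and above 4 there were 359 (92.1%). The share of 4.7% is therefore no background at the level of the blocks. With 1 pool per group a call is a size, not a test, and the cause of the difference was not tested.

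These calls depended on how the arrays were scaled. Quantile normalization between the arrays gives all arrays the same distribution of M by construction, and left 0 higher blocks and a median D of 0.0080. Loess normalization within the arrays raised the count to 2583 but also left only 7 blocks by the rule. Read on slide 1 alone 715 blocks were past 0.5 and 2 were past -0.5, and on slide 2 alone 1284 and 0.

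Noise in the control arrays enters both the choice and D, and a choice on high control values lowers D. The choice was therefore also made on 1 slide and D read on the other. Blocks chosen on the control array of slide 1 numbered 3412 and had a median D of 0.39 on slide 2, with 96.1% above 0. Blocks chosen on the control array of slide 2 numbered 3238 and had a median D of 0.26 on slide 1, with 85.4% above 0. A choice on the food restricted arrays favours a higher D by construction, and the median D then came to 0.26 on slide 1 and 0.42 on slide 2, and 638 blocks were higher.

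**Figure D2:**
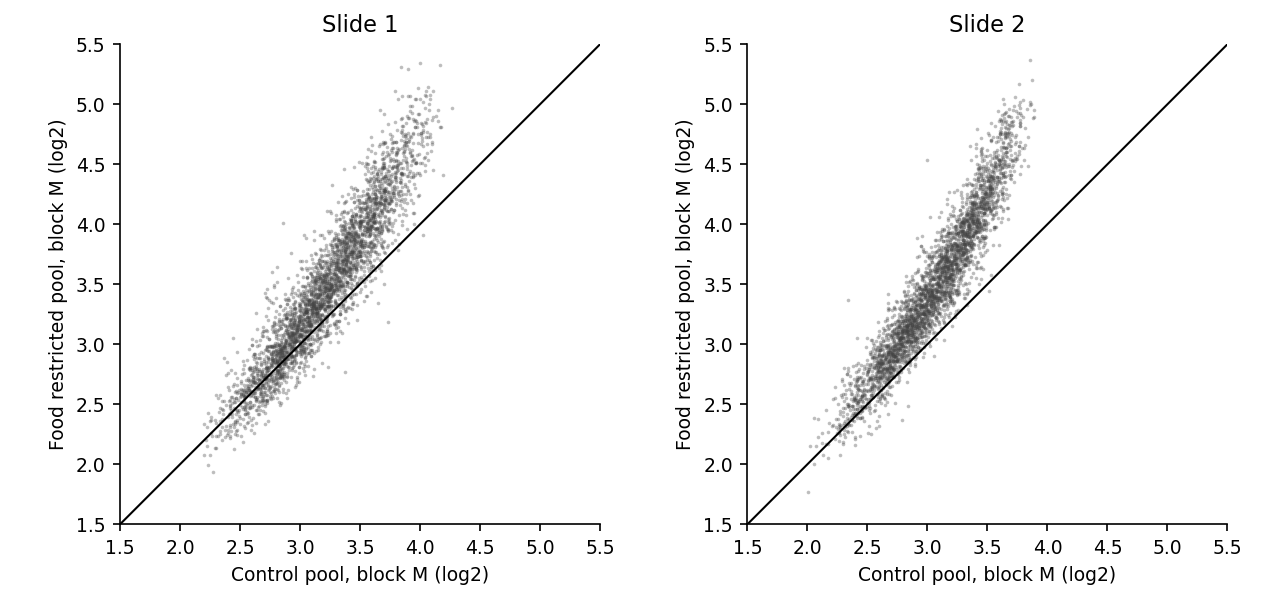
Block M in the food restricted pool (vertical) against block M in the control pool (horizontal), in log2 units, for the 3325 blocks on slide 1 (left) and slide 2 (right); the line marks equal values. Points near 2.5 lie on or close to the line, and the distance above it grows with the level, up to food restricted values of 5.34 and 5.37 against control values that end at 4.26 and 3.89.

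D was higher in blocks of higher level. To keep the food restricted values and the slide of D out of the classes, D on 1 slide was read by the control M of the block on the other slide, a split added after seeing the data. In the 230 blocks with a control M of at most 2.5 on slide 2, the median D on slide 1 was -0.02, and 0.435% were at 0.5 or above. In the 1475 blocks between 3 and 3.5 it was 0.35 with 26.0% at 0.5 or above, and in the 385 blocks above 3.5 it was 0.67 with 77.1%. The reading of slide 2 by the control M of slide 1 gave 0.10, 0.41 and 0.74 in the same classes, with 86.1% of the 875 blocks above 3.5 at 0.5 or above. All autosomal tiles in the same classes gave values close by: above 3.5 the median D was 0.70 over 475 tiles on slide 1 and 0.76 over 993 on slide 2. Of these tiles, 80.8% and 86.8% were at 0.5 or above. Between 3 and 3.5 the share of tiles on slide 1 was 26.1%. The tiles include those inside blocks. The control arrays of the slides share the control pool, so a property of that pool enters both the classes and D. By the mean M of all 4 arrays, which holds the food restricted values, 258 of the 294 blocks above 4 were higher (87.8%). Among all autosomal tiles above 4 by this mean, 359 of 390 (92.1%) were higher. Control values end near 4, so these last counts follow in part from the split. A running median of D by mean M, taken over all autosomal probes including those in blocks, was also subtracted. This removes the trend with level by construction, so values near 0 follow from the step. The median D of the blocks was then -0.02 on slide 1 and -0.01 on slide 2, and 0 blocks were past 0.5 in either direction. Across blocks, the D values of the slides correlated at r = 0.76 (n = 3325 blocks, which share pools and arrays). The number of probes in a block had little relation to D: blocks of 6 probes had a median D of 0.22 and 0.36, and the 112 blocks of 15 or more had 0.30 and 0.52. The median D was above 0 on both slides on all 19 autosomes, and the share of higher blocks ranged from 13.4% on chromosome 19 to 25.8% on chromosome 15.

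The direction of the immunoprecipitated channel in blocks depended on its scaling. Here and below each channel is given as log2 signal minus the array median, unless stated. The ratio and each channel are centred on separate array medians, and each block value is a separate median over probes. The channel differences therefore do not add up to D. On this scale the immunoprecipitated signal of the blocks had a median of 3.26 and 3.27 on the food restricted arrays and 3.67 and 3.60 on the control arrays. The difference, food restricted minus control, had a median of -0.41 on slide 1 and -0.33 on slide 2 and was below 0 on both slides in 3255 blocks (97.9%). It varied little between blocks, with a standard deviation of 0.13 and 0.11. At 0.5 in size on both slides, 66 blocks (1.98%) were lower in this channel and 0 were higher, against 1.23% and 2.95% of all tiles. The array medians themselves differed, however: the median background-subtracted signal of this channel was 63.2 and 43.8 on the food restricted arrays and 39.1 and 29.5 on the control arrays. Without centring, the background-subtracted signal of the blocks had a median difference of 0.29 and 0.24, which was above 0 on both slides in 3292 blocks. The processed signal without centring differed by -0.02 and 0.11. The lower values are therefore relative to the rest of the array, and whether more or less DNA of the blocks was recovered was not tested.

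The reference signal, which comes from total DNA without immunoprecipitation and is read on the same spots, was lower on each of these scales. In the blocks it had a median of -0.06 on both food restricted arrays, close to the median of the array, and 0.43 and 0.48 on the control arrays. Above the median of their array were 45.3% and 46.3% of blocks on the food restricted arrays and 78.7% and 78.9% on the control arrays. The difference had a median of -0.47 and -0.50, and 1253 blocks (37.7%) were lower by at least 0.5 on both slides, against 3.21% of all tiles, while 1 block was higher, against 0.291%. Without centring, the difference was -0.48 and -0.49 for background-subtracted and -0.43 and -0.40 for processed signal. In tiles that touch no block the centred difference had a median of 0.10 on both slides. Among the 639 blocks called higher by the ratio, the reference was lower by at least 0.5 on both slides in 512. The ratio holds the reference signal, so the call and this count are not independent. The centred immunoprecipitated signal was below that of the control pool on both slides in 626 of the 639. Over all 3325 blocks the same counts were 1253 (37.7%) and 3255 (97.9%), so the count of 626 does not set the higher blocks apart. Over the blocks, the channels also ran together more closely in the control pool. Across blocks, the immunoprecipitated and reference signals of an array correlated at r = 0.56 and 0.54 on the food restricted arrays and 0.82 and 0.83 on the control arrays (n = 3325 blocks). Over all autosomal probes the arrays were closer, with 0.58 and 0.55 against 0.63 and 0.60. The rule bounds the ratio of the channels in the control pool only, and its part in the gap over blocks was not tested. The part of the reference channel in the higher ratio was not tested beyond these values.

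**Figure D3:**
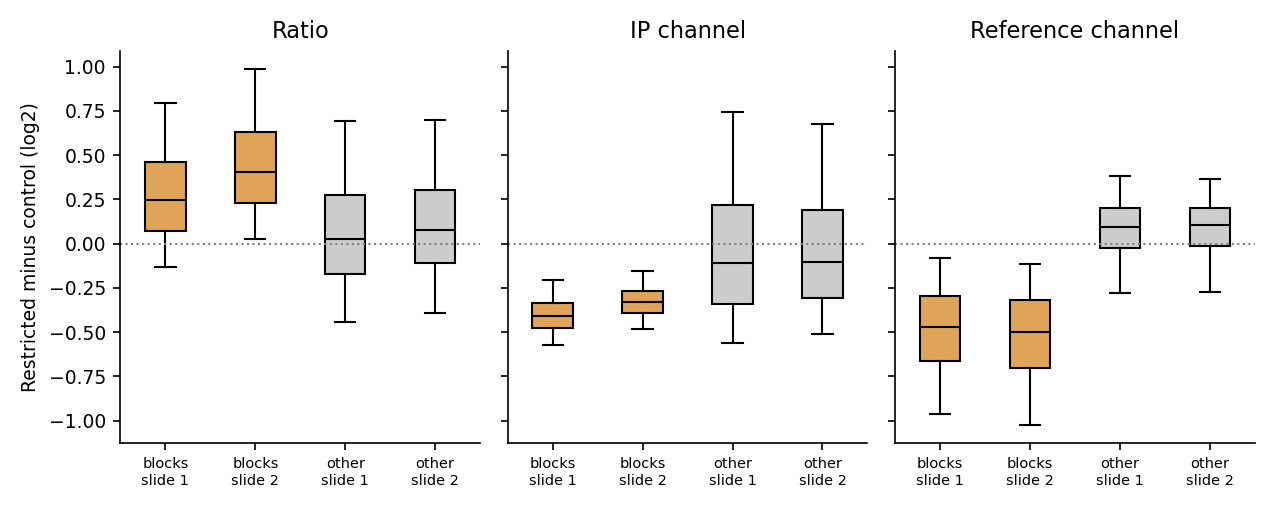
Difference between the food restricted and the control pool in log2 units, for the ratio (left), the immunoprecipitated (IP) channel (middle) and the reference channel (right), over the 3325 blocks and over other autosomal tiles of 6 probes that touch no block, on each slide. Boxes give the middle 50% and whiskers the 5th to 95th percentile. Channels are relative to the array median, and without this centring the IP difference is not below 0 on both slides. The differences of the channels do not add up to that of the ratio, which is centred separately. In blocks the medians of both channels lie below 0 (-0.41 and -0.33 for IP, -0.47 and -0.50 for the reference), and those of the ratio lie above it (0.25 and 0.41).

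The edges of the blocks showed the same split by level. At 4148 block ends a further probe of the same stretch was measured. The last probe inside had a median M of 2.56 on both food restricted arrays and 2.56 and 2.44 on the control arrays, and the first probe outside had 1.37 and 1.41, against 1.5 and 1.46. By the third probe outside M had come down to 0.39 and 0.37 in the food restricted pool and 0.48 and 0.42 in the control pool, still above the median of the arrays. By the third probe inside it was 3.71 on both food restricted arrays, against 3.38 and 3.22. The median D was therefore -0.13 and -0.03 just outside a block, 0.02 and 0.14 at its last probe, and 0.34 and 0.50 at the third probe inside, after which it stayed level. The step of M across the edge was steeper in the food restricted pool. The first probe outside was above 2 in that pool at 285 ends (6.87%) and the last probe inside was at or below 2 at 409 (9.86%). The centred immunoprecipitated difference changed little on the way in, from -0.34 and -0.29 at the first probe outside to -0.40 and -0.33 at the third inside, whereas the reference difference changed from 0.03 on both slides to -0.50 and -0.55.

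**Figure D4:**
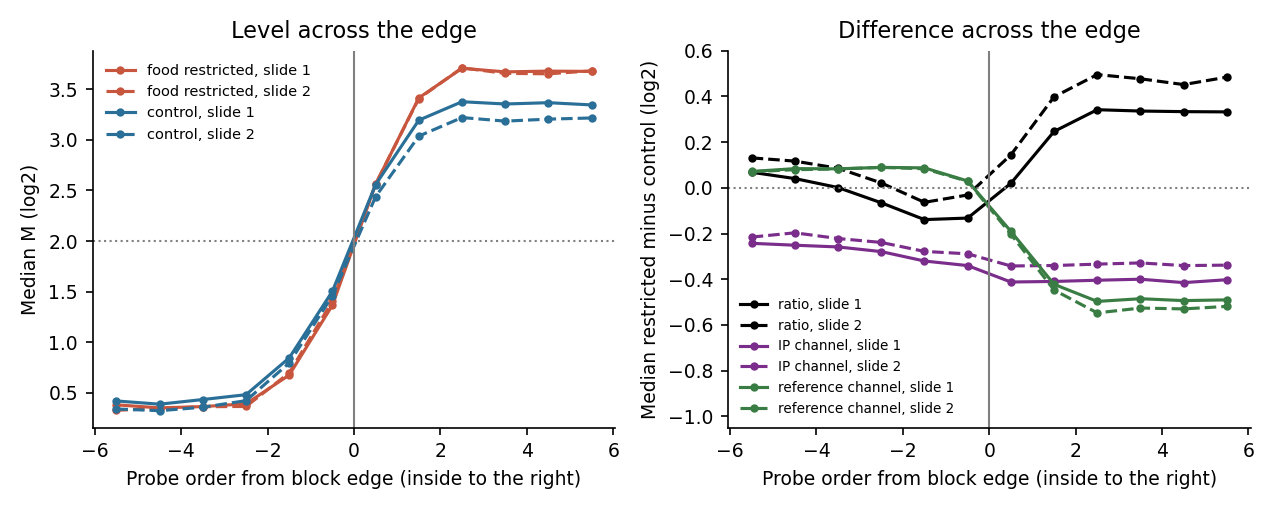
Median values by probe order from the block edge, at the 4148 ends that have a measured neighbour; negative numbers are outside and positive numbers inside. Left, M (log2) on each array, with the dotted line at the threshold of 2. Right, food restricted minus control in log2 units for the ratio and both channels. M is higher inside than outside in both pools, and inside the edge the reference difference drops to about -0.50 while the IP difference stays near -0.40 and -0.33.

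The shape of a block was shared by the pools. With the mean of each block taken off, the profile of M over block probes correlated at r = 0.92 between the food restricted arrays and at 0.84 between the control arrays. Between the pools it was 0.91 on slide 1 and 0.92 on slide 2, where slide and dyes are shared, and 0.85 and 0.87 across slides (26612 probes, neighbours of which overlap in fragments). M varied more within a block in the food restricted pool: the standard deviation of M over the probes of a block had a median of 0.74 there and 0.47 in the control pool, where the rule removes values below 2.

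The block with the most probes, which is also the longest, lies on chromosome 16 from 59554152 to 59559028. It has 27 probes over 4877 bp and fills its stretch, so both ends are unmeasured. Its M was 3.35 and 3.5 in the food restricted pool and 3.24 and 3.01 in the control pool, with a D of 0.11 and 0.49. The slides thus disagree on the size of D, and the reference differed by -0.39 and -0.55. All 27 probes stayed above 2 in the food restricted pool, and the lowest had 2.14.

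The next 4 blocks by the same ranking had 22 to 24 probes, and the last of these places was tied with other blocks of 22 probes. On chromosome 4, from 137635762 to 137639863, a block of 24 probes had 3.79 and 3.61 in the food restricted pool and 3.20 and 3.06 in the control pool, so the values of the pools do not overlap and D was 0.59 and 0.56. The block on chromosome 8 from 108211620 to 108215449 (24 probes) is bounded by measured probes on both sides. Its M was 4.13 and 3.97 in the food restricted pool, against 3.76 and 3.35, and it reached 1 probe further there. The block on chromosome 15 from 76284456 to 76288993 (23 probes) had 4.35 and 4.29, against 3.70 and 3.54. It consists of a high part and a lower part with a dip between them, which both pools show, and it lies in the megabase with 23 blocks. The block on chromosome 8 from 111312688 to 111317145 (22 probes) had 3.96 and 3.72, against 3.66 and 3.23. At 1 of its probes M was 1.99 in the food restricted pool, so that the longest run there was 11 probes.

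The 5 longest blocks in bp included 3 of these and 2 more. The block on chromosome 1 from 191607234 to 191611643 (22 probes, 4410 bp) had an M of 3.95 and 3.84 in the food restricted pool and 3.37 and 3.25 in the control pool. That on chromosome 2 from 174119930 to 174124316 (21 probes, 4387 bp) was weaker, with 3.19 and 3.11, against 3.02 and 2.84. Its D of 0.17 and 0.27 was below the median of the blocks on both slides.

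The blocks with the highest mean control M were all small. The first, on chromosome 7 from 7248576 to 7249762, had 9 probes and the other 4 had 6 each, on chromosomes 3, 15, 19 and 16. The first had an M of 4.67 and 4.80 in the food restricted pool and 4.10 and 3.81 in the control pool. The 4 others had between 4.69 and 5.14 in the food restricted pool and between 3.70 and 4.10 in the control pool, and the pools did not overlap in any of the 5. For the first block, the centred food restricted minus control difference was -0.94 and -1.18 in the reference channel and -0.33 and -0.29 in the immunoprecipitated channel.

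Ranked by the smaller D of the slides, the first of the higher blocks lies on chromosome 10 from 93308198 to 93309354. Its 7 probes had an M of 5.30 and 5.37 in the food restricted pool and 3.90 and 3.86 in the control pool, a D of 1.40 and 1.51 or 2.74-fold. Relative to the array medians, its immunoprecipitated signal differed by -0.54 and -0.47 and its reference signal by -0.95 and -0.98, values that do not add up to D. The end probe at the measured border had nearly the same M on all arrays, from 2.00 to 2.29, so that the difference belongs to the probes further in. The next 4 lie at 30110608 to 30111715 of chromosome 2, 53354386 to 53355408 of chromosome 7, 97820637 to 97821459 of chromosome 5, and 134819439 to 134820682 of chromosome 6. They were 2.38-fold to 2.64-fold higher, with 4.93 to 5.34 in the food restricted pool and 3.59 to 4.0 in the control pool. In each of the 5 the reference signal differed by at least 0.85 in size, lower in the food restricted pool on both slides. A D of at least 1 on both slides was reached by 30 blocks.

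At the other end the differences were small. The lower block ranked first, on chromosome 1 from 94874958 to 94875940 (6 probes), had an M of 2.33 and 2.25 in the food restricted pool and 2.60 and 2.53 in the control pool, with a D of -0.27 and -0.28. In the food restricted pool 4 of its 6 probes were above 2. The next 4, on chromosomes 13, 14, 15 and 16, had a mean D between -0.30 and -0.22. All 5 belong to the weaker blocks, with a median control M between 2.00 and 2.84 on each array. The block on chromosome 14 from 79882844 to 79884154 had the lowest food restricted values of the 5, 2.24 and 1.77, against 2.48 and 2.00.

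**Figure D5:**
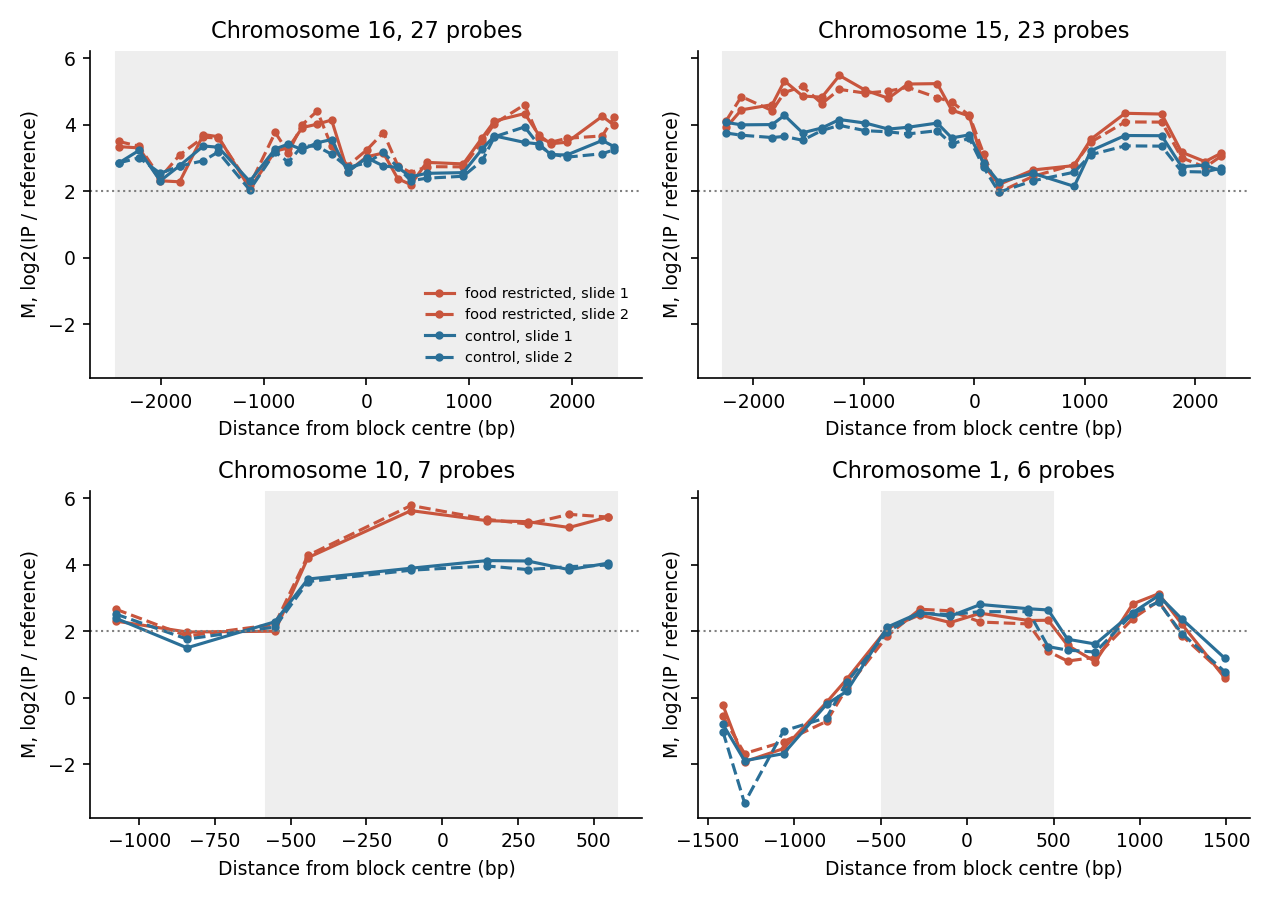
M (log2 of immunoprecipitated over reference signal) of single probes against distance from the block centre in bp, on the 4 arrays, for the longest block (chromosome 16), a block of 23 probes (chromosome 15), the higher block ranked first (chromosome 10) and the lower block ranked first (chromosome 1). The shaded part is the block and the dotted line the threshold of 2. The food restricted lines lie above the control lines where M is high, up to 5.30 and 5.37 against 3.90 and 3.86 for the block on chromosome 10, and run with them where M is near 2.

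The limits of the rule cut through a continuous range. The lowest control M of any block probe was 2.00, in a block of 8 probes on chromosome 18 from 47467627 to 47469103, which had an M of 2.76 and 2.73 in the food restricted pool and 2.54 and 2.65 in the control pool. In 680 blocks the weakest control probe was at 2.1 or less, and these blocks had a median M of 3.10 in the food restricted pool. A threshold of 1.9 would have added 358 stretches without a block, with a median M of 2.82 in the food restricted pool. Just below the required number of probes, 1569 runs had 5, with a median M of 3.23 in the food restricted pool and 2.98 in the control pool. The 1130 blocks of 6 probes had 3.35 and 3.07.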

How the data were processed

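Spots were quantified by version 10.5.1.1 of Agilent's Feature Extraction, a tool named in the submitters' processing notes; probe positions are on mm9 and the processed intensity of each channel carries a linear dye factor, per the file headers. The deposited intensities also comprise spot and background medians, background-subtracted signal and flags (signal well above background, saturation, outlier), used as deposited. The deposited value table holds log2 ratios of red over green processed signal, not centred; each of its columns equals 1 scanner file within 0.001 at 100% of probes.

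All 415814 probes outside the control spots entered. The titles' dyes gave the direction of M, and the median of each array was subtracted. Blocks, tiles (6 consecutive autosomal probes within the 500 bp spacing, not overlapping) and D were computed with Python 3.11.15; limma 3.58.1 in R 4.3.3 gave the loess, quantile and normexp alternatives. Normexp used median spot signals, since the files used here hold no mean spot signal. The block finder was tested on simulated stretches with planted blocks. No statistical test was run, since each group was 1 pool; the arrays' number limits the precision. The rule and the ranking for named blocks (most probes, longest, highest control M, largest D of 1 sign on both slides, nearest the threshold) were chosen with earlier results of these data known. No mm9 genome or annotation was used, so no sequence is printed.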

Additional observations from a re-analysis of the deposited data

How the results depend on the processing

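The number of blocks (3325), the number that stayed whole in the food restricted pool (2656), the median D averaged over the slides (0.33) and the counts of higher (639) and lower (0) blocks were recomputed under alternatives. For D, the blocks were kept where scaling, channel or filter changed and chosen anew where the rule changed. Unless stated, the cause was not tested. Centring on the densest value shifts every D by -0.20 on slide 1 and -0.15 on slide 2 and gave 7784 blocks, 4229 whole, a median D of 0.15 and 243 higher. No centring shifts D by 0.11 and 0.06. Loess gave 7 blocks, 3 whole, a median D of 0.88 and 2583 higher. Normexp, whose offset shrinks ratios by construction, gave 268 blocks, 268 whole, 0.52 and 1335 higher. Quantile normalization gave a median D of 0.0080 and 0 higher. The running median taken off, which removes the trend with level by construction, gave -0.017 and 0 higher, and the centred immunoprecipitated channel alone -0.37 with 0 higher and 66 lower. Without centring, an alternative added after seeing the data, that channel alone gave 0.045 with 3 higher for processed signal and 0.26 with 16 higher for background-subtracted signal. With M above 1.5 there were 5162 blocks with a median D of 0.21; with M above 2.5 there were 1891, of which 1701 whole, with 0.49 and 1 lower. A minimum of 8 probes left 1442 blocks, 1116 whole and 281 higher. A call size of 0.3 gave 1328 higher and 1.0 gave 30. Chosen on the control array of slide 1 and read on slide 2, 1280 were higher; the reverse gave 1 lower. Chosen on 1 control array, the blocks numbered 3238 and 3412 and those whole 2403 to 2675. Over the original 3325 blocks, D of 1 slide alone had a median of 0.25 to 0.41, with 715 to 1284 higher and 0 to 2 lower. The deposited value table, which gave 636 higher, the filters on dim probes and the other start gaps stayed within 1.5 times each count. No paired analysis was possible because 1 pool per group leaves no test to add a block to; D itself is the difference within a slide.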

Other observations

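The same rule applied to the X chromosome, which the census leaves out, gave 87 blocks on 17116 probes. They held 3.89% of its probes, against 6.68% on the autosomes, and the largest had 14 probes, against 27. The part of fetal sex, which the labels do not state, was not tested.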
